A study of Rattus norvegicus with 12 samples.

Results

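The BCL2 family sets whether a cell commits to apoptosis at its mitochondria, and 10 of its genes were followed here in whole rat lung: the pro-survival genes Bcl2, Bcl2l1, Bcl2l2 and Mcl1, the pore-forming effector Bak1, and the BH3-only genes Bcl2l11, Bad, Bid, Bbc3 and Pmaip1. They were taken by symbol from a table of 32883 genes. A row was matched for 8 of the 10, and all 8 passed the filter on low counts that left 15257 genes. Mcl1 and Bbc3 were not analysed here. The lungs came from WT rats and gave 12 libraries, in 3 groups of 4, all with a time of 25 days whose starting point, like strain, sex and age, is not given in the sources used here. Control rats have a control treatment only. MCT-vehicle rats received monocrotaline, a plant alkaloid that injures lung vessels and is used to model pulmonary hypertension, and the vehicle of ferrostatin-1. MCT-Fer-1 rats received monocrotaline and ferrostatin-1, an inhibitor of ferroptosis, a death driven by lipid peroxidation that is distinct from apoptosis. Dosing with ferrostatin-1 or its vehicle lasted 10 days, and no vehicle is named for controls, so that monocrotaline and vehicle cannot be told apart in a comparison with Control. Nothing says that each library came from its own rat, and the p-values measure the spread between these libraries, which may be technical.

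The family works by binding among its members. Pro-survival proteins such as BCL2, BCL-XL (Bcl2l1) and BCL-W (Bcl2l2) hold the effectors BAX and BAK in check on the outer mitochondrial membrane. BH3-only proteins are made or activated under stress, bind the pro-survival proteins or the effectors, and tip the balance towards a pore, release of cytochrome c and activation of caspases. Much of the control of BAD, BID and BAK acts on the protein and is not seen in RNA. In pulmonary hypertension, death of endothelial cells and a resistance of vessel wall cells to apoptosis have both been described.

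Library totals ran from 16640022 to 18229992 counts in Control, from 13654695 to 24016262 in MCT-vehicle and from 11601929 to 70627239 in MCT-Fer-1. Values are CPM, the counts scaled to a common library total and adjusted by TMM, a factor per library that sets most genes level between libraries. A gene counted as changed where edgeR's quasi-likelihood test gave p below 0.05 after Benjamini-Hochberg adjustment over all 15257 genes. Heart muscle markers summed to 425 CPM in MCT-vehicle 2 and 270 CPM in Control 4, above every other library, and results are also given without these libraries where a call changed. Lung markers were high throughout: the 7 tested epithelial markers summed to 22195 CPM or more in every library. Their sum was lower in every MCT-vehicle library than in every Control library. In whole lung, fewer cells of a type and less RNA per cell cannot be told apart.

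The sequences upstream of the 3 genes that differed between MCT-vehicle and Control are shown first, because they are the stretch of each gene nearest to where transcription starts. Each is the 250 bases before the annotated start in RefSeq (GRCr8), 5′ to 3′ on the gene's strand. Capitals mark GC boxes (GGGCGG, or CCGCCC on the other strand), a motif chosen after the sequences were seen. Another motif, planned beforehand, was also searched in these windows and is not reported here.
Bak1, chr20:5110975-5111224, minus strand: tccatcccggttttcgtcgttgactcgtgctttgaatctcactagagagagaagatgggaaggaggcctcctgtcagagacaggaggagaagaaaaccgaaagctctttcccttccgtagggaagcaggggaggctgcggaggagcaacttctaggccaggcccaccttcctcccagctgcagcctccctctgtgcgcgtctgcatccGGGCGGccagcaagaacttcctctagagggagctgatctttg
Bid, chr4:155808320-155808569, minus strand: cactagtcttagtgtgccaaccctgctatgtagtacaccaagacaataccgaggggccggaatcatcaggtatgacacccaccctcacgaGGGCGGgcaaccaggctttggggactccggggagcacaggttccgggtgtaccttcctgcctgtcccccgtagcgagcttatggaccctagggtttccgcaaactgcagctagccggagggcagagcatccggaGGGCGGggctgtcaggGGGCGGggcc
Bcl2l2, chr15:32326511-32326760, plus strand: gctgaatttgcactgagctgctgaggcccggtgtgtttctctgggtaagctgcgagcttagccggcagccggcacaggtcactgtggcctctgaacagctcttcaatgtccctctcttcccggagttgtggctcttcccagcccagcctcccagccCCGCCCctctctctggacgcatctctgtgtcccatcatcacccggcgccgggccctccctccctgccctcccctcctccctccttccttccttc
The Bid window held 3 GC boxes, and the Bak1 and Bcl2l2 windows 1 each. Of the other genes measured, the Bcl2l11 window held 2 and the Pmaip1 window 1, while the windows of Bcl2, Bcl2l1 and Bad held 0. G and C made up 57.6% of the Bak1, 62.8% of the Bid and 64% of the Bcl2l2 window, beside a median of 51.2% over all promoter windows. Genes that were not called ranged more widely. Their windows held 33.6% for Bcl2, 41.2% to 60% for Bcl2l1, 52.4% for Bad, 64.8% for Pmaip1 and 72% for Bcl2l11. A high share of G and C was thus not particular to the called genes. A GC box was found in 30.5% of 33469 rat promoter windows of this length, so 1 match is common. The share of windows with 3 was not computed. The genome build used for the counts is not given in the sources used here, and the coordinates belong to RefSeq alone.

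The first question was how the family differed between lungs of rats given monocrotaline with vehicle and lungs of controls. Of the 8 genes measured, Bak1 and Bid rose, Bcl2l2 fell, and the other 5 passed no threshold. The genes that moved thus included an effector and a BH3-only gene that favour death and a pro-survival gene that opposes it, with differences between 1.31-fold and 1.52-fold. Among all genes tested, 10.3% were called higher and 8.28% lower in this comparison, against 2 and 1 of the 8. The median log2 fold change of the 8 genes was 0.39, beside 0.016 over all genes tested.

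**Figure D1:**
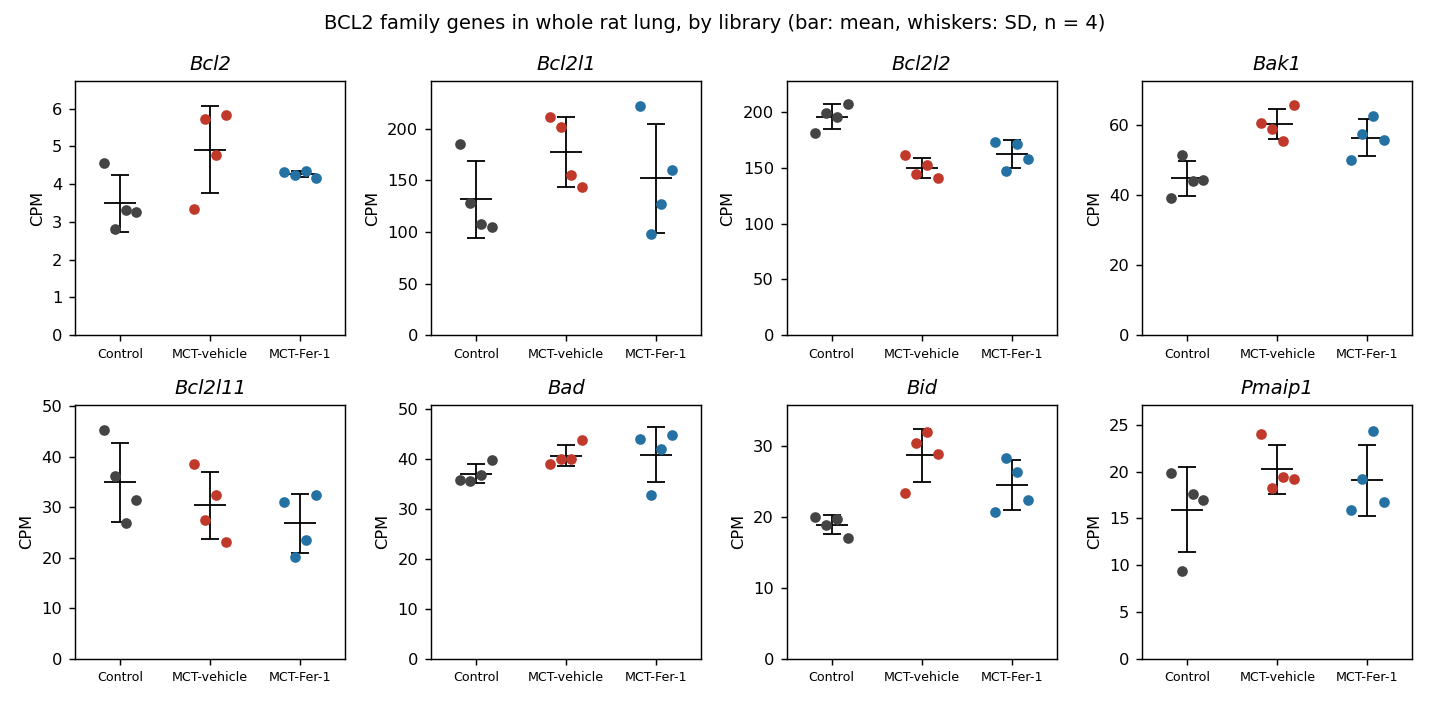
CPM of the 8 BCL2 family genes in each library (points, 4 per group), with the group mean (bar) and SD (whiskers). For Bcl2l2 every MCT-vehicle point lies below every Control point, for Bak1 and Bid every MCT-vehicle point lies above, and for the other 5 genes the points of these groups overlap.

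Of the pro-survival genes, Bcl2l2 (ENSRNOG00000015732), which encodes BCL-W, stood at 181, 199, 196 and 208 CPM in Control 1 to 4. In MCT-vehicle 1 to 4 it stood at 162, 145, 153 and 141 CPM, and in MCT-Fer-1 1 to 4 at 173, 147, 172 and 158 CPM. Every monocrotaline library lay below every Control library, and the MCT-Fer-1 values spanned from the MCT-vehicle range up to just under the lowest control. Against Control, Bcl2l2 fell 1.31-fold in MCT-vehicle (log2 fold change -0.38 ± 0.07, SE, n = 4 per group; edgeR adjusted p = 0.00301). Over 21 alternative settings its adjusted p ran from 1.28e-05 to 0.0313, so the call held in each of them.

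Bcl2 (ENSRNOG00000002791), the founding pro-survival gene, was the least counted of the 8, with 50 to 297 reads per library. It stood at 4.56, 2.82, 3.31 and 3.26 CPM in Control, at 3.33, 5.72, 4.77 and 5.83 CPM in MCT-vehicle and at 4.31, 4.24, 4.35 and 4.15 CPM in MCT-Fer-1. In MCT-vehicle 3 libraries were above every control and MCT-vehicle 1 was among the controls. The estimate, 0.49 ± 0.21 on the log2 scale, did not pass (edgeR adjusted p = 0.1196). Without MCT-vehicle 1 it was 0.64 and passed (adjusted p = 0.0362), so that 1 library decided the call. The MCT-Fer-1 libraries lay within a narrower band (SD 0.0860 CPM) than those of Control (SD 0.748 CPM) or MCT-vehicle (SD 1.16 CPM), which was not tested. MCT-Fer-1 1 to 4 had 50, 92, 115 and 297 counts of Bcl2, at which counting error alone exceeds an SD of 0.0860 CPM. The narrow band is therefore no measure of how alike these lungs were.

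Bcl2l1 (ENSRNOG00000007946), which encodes BCL-XL, had the largest standard error of the 8. It stood at 185, 128, 108 and 105 CPM in Control, at 212, 202, 155 and 143 CPM in MCT-vehicle and at 222, 98.3, 127 and 161 CPM in MCT-Fer-1. The 3 ranges overlapped, with the lowest and the highest value both in MCT-Fer-1. Its log2 fold change in MCT-vehicle was 0.43 ± 0.25 (edgeR adjusted p = 0.259), with a 95% interval from -0.11 to 0.98 that includes no change.

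Bak1 (ENSRNOG00000000485) encodes BAK, which sits in the mitochondrial membrane and forms the pore once freed. It stood at 39.3, 51.6, 44.1 and 44.5 CPM in Control, at 60.8, 59.1, 55.6 and 66.0 CPM in MCT-vehicle and at 49.99, 57.6, 62.6 and 55.8 CPM in MCT-Fer-1. All 4 MCT-vehicle libraries were above the highest control, Control 2, whereas MCT-Fer-1 1 lay below it. Bak1 rose 1.35-fold in MCT-vehicle (log2 fold change 0.43 ± 0.09; edgeR adjusted p = 0.00694), and the call held in all 21 alternatives, with adjusted p from 5.46e-04 to 0.0407. In GRCr8 a long non-coding RNA gene overlaps Bak1, another pair overlaps Bcl2, the pseudogene Rps2-ps43 overlaps Bcl2l1, and Acoxl overlaps Bcl2l11. The strand setting of the counting is not given, and reads from such overlaps cannot be told apart.

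Bid (ENSRNOG00000012439), the BH3-only gene whose protein links death receptors to mitochondria once caspase 8 has cut it, showed the largest fold change of the 8 in this comparison. It stood at 19.95, 18.8, 19.7 and 17.0 CPM in Control, at 23.4, 30.4, 32.0 and 28.8 CPM in MCT-vehicle and at 20.7, 28.3, 26.3 and 22.4 CPM in MCT-Fer-1. Every monocrotaline library exceeded every control, although MCT-Fer-1 1 did so narrowly. Bid rose 1.52-fold in MCT-vehicle (log2 fold change 0.60 ± 0.12; edgeR adjusted p = 0.00432). The call held in all 21 alternatives, with adjusted p from 1.31e-04 to 0.0419.

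The other BH3-only genes passed no threshold. Bcl2l11 (ENSRNOG00000016551), which encodes BIM, stood at 45.3, 36.1, 26.9 and 31.4 CPM in Control, at 38.6, 27.5, 32.4 and 23.2 CPM in MCT-vehicle and at 30.9, 20.2, 23.6 and 32.5 CPM in MCT-Fer-1, and the groups overlapped. Its log2 fold change in MCT-vehicle was -0.20 ± 0.20 (edgeR adjusted p = 0.532). Bad (ENSRNOG00000021147), whose protein is held inactive by phosphorylation under growth factor signalling, stood at 35.8, 35.7, 36.8 and 39.8 CPM in Control, at 39.0, 39.96, 39.97 and 43.8 CPM in MCT-vehicle and at 43.95, 32.8, 41.9 and 44.9 CPM in MCT-Fer-1. The monocrotaline values of Bad lay mostly at or above those of Control, with MCT-Fer-1 2 the lowest of all (MCT-vehicle log2 fold change 0.14 ± 0.09; edgeR adjusted p = 0.349). The 95% interval for Bad ran from -0.068 to 0.34, below the estimate for Bid. Pmaip1 (ENSRNOG00000018770), which encodes NOXA, a stress-induced binder of pro-survival proteins, stood at 19.8, 9.41, 17.6 and 16.9 CPM in Control, at 24.01, 18.2, 19.5 and 19.2 CPM in MCT-vehicle and at 15.9, 19.3, 24.4 and 16.7 CPM in MCT-Fer-1. Control 2 was the lowest library and the groups overlapped (MCT-vehicle log2 fold change 0.35 ± 0.20; edgeR adjusted p = 0.267).

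CPM of MCT-vehicle and Control did not overlap for 3 of the 8 genes, Bcl2l2, Bak1 and Bid, beside 21.5% of all genes tested. At an unadjusted p below 0.05 there were 4 of the 8, Bcl2 being the fourth, beside 32.1% of all genes tested. In the same libraries the summed level of 9 macrophage markers went from 914 to 1024 CPM in Control to 1288 to 1949 CPM in MCT-vehicle, with 8 of 9 called higher, and Marco was at 0 in every control. The summed level of 8 endothelial markers went from 4274 to 4539 CPM in Control to 2597 to 3324 CPM in MCT-vehicle, with 3 of 8 called lower. That of 7 epithelial markers went from 32196 to 34259 CPM in Control to 22195 to 29223 CPM in MCT-vehicle, with 0 called higher and 0 called lower. All 7 mast cell markers and 7 of 8 markers of dividing cells were called higher. The part of these shifts in the differences of Bak1, Bid and Bcl2l2 was not tested.

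The second question was whether ferrostatin-1 moved the family in monocrotaline lungs. When MCT-Fer-1 was set against MCT-vehicle, none of the 8 genes was called by edgeR or in any of the 21 alternatives, DESeq2 and limma voom among them. None had an unadjusted p below 0.05, and in none did the groups fail to overlap, beside 6.1% of all genes tested. The call rate over all genes was 0% by edgeR too, with 1835 genes at an unadjusted p below 0.05, so a count of 0 among 8 genes is the background. DESeq2 called 233 genes, none of the 8 among them, and limma voom 0. The median log2 fold change of the 8 was -0.14, beside -0.0093 over all genes.

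The intervals show what size of effect these libraries leave possible. For Bid the log2 fold change of MCT-Fer-1 against MCT-vehicle was -0.23, with a 95% interval from -0.48 to 0.028 (edgeR adjusted p = 0.470, the smallest of the 8). For Bak1 it was -0.09, with an interval from -0.29 to 0.10. For Bcl2l2 it was 0.12, with an interval from -0.039 to 0.27. These estimates had the opposite sign to those of MCT-vehicle against Control, but both comparisons use the MCT-vehicle libraries, so their signs are not independent. The remaining estimates were -0.20 for Bcl2, -0.23 for Bcl2l1, -0.18 for Bcl2l11, 0.0084 for Bad and -0.08 for Pmaip1. The interval was widest for Bcl2l1, from -0.78 to 0.32.

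**Figure D2:**
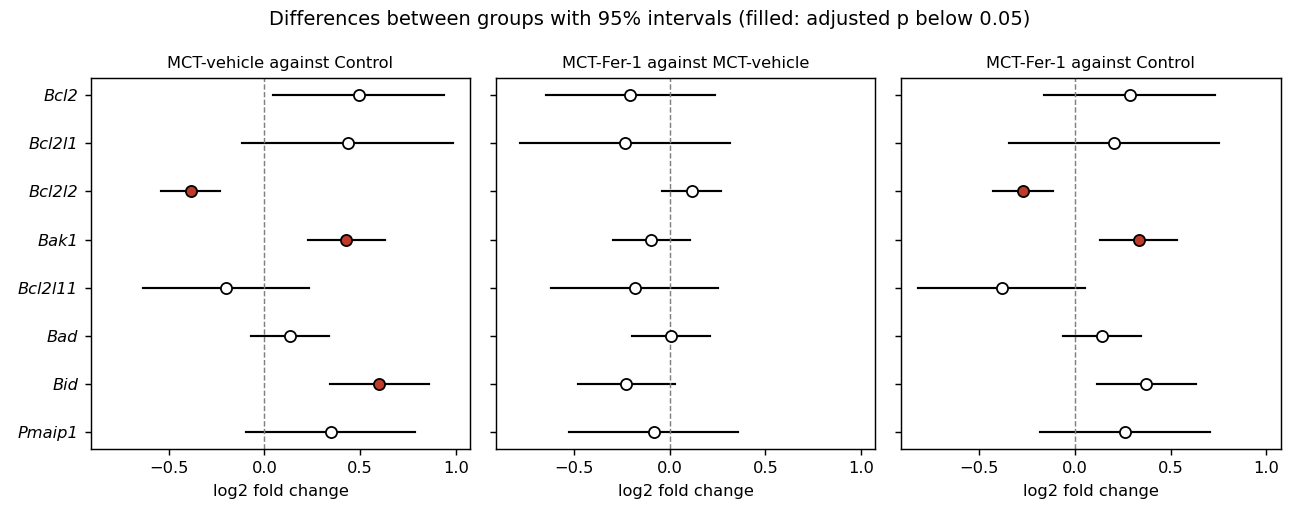
Log2 fold change (x axis) of the 8 genes in each of the 3 comparisons, with 95% intervals from the edgeR fit; filled points have an adjusted p below 0.05. Filled points are Bcl2l2, Bak1 and Bid in MCT-vehicle against Control, Bcl2l2 and Bak1 in MCT-Fer-1 against Control, and none in MCT-Fer-1 against MCT-vehicle.

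The third comparison set MCT-Fer-1 against the same Control libraries, and so shares them with the first. Bak1 rose by 0.33 ± 0.09 on the log2 scale (edgeR adjusted p = 0.0370) and Bcl2l2 fell, with -0.27 ± 0.07 (edgeR adjusted p = 0.0301). That is 1 of 8 higher and 1 of 8 lower, beside 6.67% and 4.12% of all genes tested. Bid had a log2 fold change of 0.37 ± 0.12 and did not pass (edgeR adjusted p = 0.0639), although its groups did not overlap. Non-overlap was seen for 2 of the 8, Bid and Bcl2l2, beside 19.1% of all genes.

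These calls lay close to the threshold. That of Bak1 was lost without Control 1, 3 or 4 or MCT-Fer-1 2, 3 or 4, each left out singly (adjusted p from 0.0708 to 0.118), and without MCT-vehicle 2 and Control 4 together (adjusted p = 0.106). That of Bcl2l2 was lost without Control 2, 3 or 4 or MCT-Fer-1 2 or 4 (adjusted p from 0.0668 to 0.0916), and without the pair with heart muscle transcripts (adjusted p = 0.111). Bid in turn passed by DESeq2 (adjusted p = 0.0401), by limma voom (adjusted p = 0.0396), after thinning every library to the smallest total (adjusted p = 0.0478), and when either MCT-vehicle 1 (0.0411) or MCT-Fer-1 1 (0.0361) was left out. The median log2 fold change of the 8 was 0.23, beside -0.0036 over all genes. The other 5 genes had log2 fold changes of 0.29 for Bcl2, 0.20 for Bcl2l1, -0.38 for Bcl2l11, 0.14 for Bad and 0.26 for Pmaip1, with edgeR adjusted p from 0.261 for Bcl2l11 to 0.677 for Bcl2l1.

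Bax (ENSRNOG00000020876), the second pore-forming effector, is the closest partner of Bak1. It stood at 38.7, 38.8, 33.4 and 35.9 CPM in Control, at 75.8, 62.1, 62.9 and 90.7 CPM in MCT-vehicle and at 70.2, 66.4, 70.5 and 60.7 CPM in MCT-Fer-1. All monocrotaline libraries were far above all controls. Bax rose by 0.99 ± 0.11 on the log2 scale in MCT-vehicle (edgeR adjusted p = 1.41e-04) and 0.87 ± 0.11 in MCT-Fer-1 (edgeR adjusted p = 4.21e-04), and between the monocrotaline groups the difference was -0.12 ± 0.11 (edgeR adjusted p = 0.685).

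The count ratio of Bax to Bcl2, which does not depend on how libraries are scaled, is a common summary of the balance of death and survival genes. It was 8.48, 13.7, 10.1 and 11.02 in Control, 22.7, 10.9, 13.2 and 15.6 in MCT-vehicle and 16.3, 15.7, 16.2 and 14.6 in MCT-Fer-1. The means were 10.8 ± 2.20, 15.6 ± 5.14 and 15.7 ± 0.763 (SD, n = 4). MCT-vehicle overlapped Control, while every MCT-Fer-1 library was above every control. The ratio was not tested, it is not corrected for gene length, and Bcl2 counts of 50 to 126 in all but 1 library limit its precision.

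Among the 8 genes themselves, deviations from the group means were followed over the 12 libraries. Pearson's r over the 28 pairs ran from -0.64 for Bcl2l2 and Bid to 0.82 for Bcl2l1 and Bcl2l11, with a median of -0.020. The pair at the top joins a pro-survival gene and a BH3-only gene. With the other BH3-only genes measured, Bcl2l1 had an r of 0.32 (Bad), -0.07 (Pmaip1) and -0.52 (Bid). Control 1, at 185 CPM of Bcl2l1, also had the highest Bcl2l11 of all libraries, 45.3 CPM, and MCT-Fer-1 2 had the lowest of both, 98.3 and 20.2 CPM. MCT-Fer-1 1 breaks the order, with the highest Bcl2l1 but 30.9 CPM of Bcl2l11. The points share libraries, depth and tissue composition, and the pair was singled out after all 28 values were seen.

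**Figure D3:**
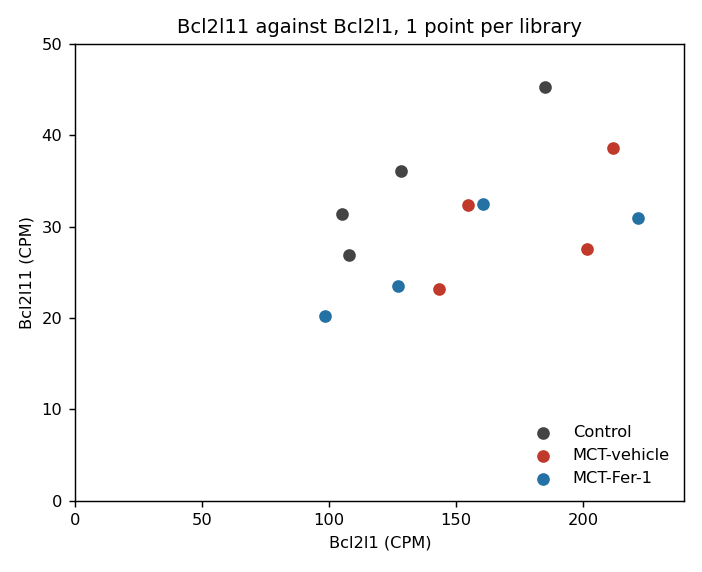
Bcl2l11 (y axis, CPM) against Bcl2l1 (x axis, CPM), 1 point per library, coloured by group. Control 1 (185, 45.3) and MCT-Fer-1 2 (98.3, 20.2) are the uppermost and the lowest point, and Pearson's r of the deviations from group means is 0.82 over 12 libraries.

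The genes whose log2 CPM followed Bcl2l2 most closely over the 12 libraries were Fmo1 (Pearson's r = 0.97), Pou2f3 (0.96), Enpp4 (0.96), Kcnk2 (0.95) and Zmynd11 (0.95). Fmo1, a flavin monooxygenase gene, ranged over 175 to 274 CPM in Control, 64.7 to 95.4 in MCT-vehicle and 69.0 to 135 in MCT-Fer-1. Kcnk2, a potassium channel gene, ranged over 12.2 to 16.8, 2.89 to 4.58 and 3.32 to 6.69 CPM. As for Bcl2l2, the monocrotaline libraries of both genes lay below the controls. The values of r include the difference between groups and were chosen as the highest of all genes.

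Of 11 further BCL2 family genes tested, 2 rose and 2 fell in MCT-vehicle against Control, beside 10.3% and 8.28% of all genes tested. Their median log2 fold change was 0.21. Beside Bax, Bcl2a1 (ENSRNOG00000047606), a pro-survival gene of blood cells, rose from 35.2 ± 3.15 to 59.6 ± 9.40 CPM (SD, n = 4; log2 fold change 0.76 ± 0.19; edgeR adjusted p = 0.0138). Bcl2l14 (ENSRNOG00000028632), a less studied relative, fell from 22.5 ± 3.88 to 10.97 ± 2.54 CPM (log2 fold change -1.04 ± 0.17; edgeR adjusted p = 0.00121). Bnip3l, a receptor for removal of mitochondria that is abundant in maturing red cells, had -0.31 ± 0.08 on the log2 scale (edgeR adjusted p = 0.0175). The 4 MCT-vehicle values of Bnip3l were below all controls, as was the summed level of 5 red cell markers, 1713 to 2248 CPM against 3313 to 5462 CPM; the part of red cells in it was not tested. The calls of Bcl2a1 and Bnip3l were lost without MCT-vehicle 2 and Control 4 (adjusted p = 0.0560 and 0.0547), and that of Bnip3l also without Control 2 (adjusted p = 0.0578).

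Downstream of the pore, 3 of 19 genes of the apoptosome, caspases and mitochondrial effectors rose and 2 fell, with a median of 0.09. The shares over all genes tested were 10.3% higher and 8.28% lower. Apaf1, the scaffold of the apoptosome, fell from 56.0 ± 3.92 to 43.4 ± 2.65 CPM (log2 fold change -0.37; edgeR adjusted p = 0.00421). Diablo, which frees caspases from their inhibitors, rose by 0.24, and Mtch2, a receptor of cleaved BID on mitochondria, by 0.20 (edgeR adjusted p = 0.0119 and 0.0192). Casp2, an initiator caspase named here because it completes the count of those that fell, had -0.33 on the log2 scale (edgeR adjusted p = 0.0240). Without MCT-vehicle 2 and Control 4 the calls of Diablo, Mtch2 and Casp2 were lost (adjusted p = 0.0662, 0.0914 and 0.105). That of Mtch2 was also lost without Control 2, without MCT-vehicle 2, without a filter on low counts and in a fit of these groups alone, and that of Casp2 without Control 2 or 4 or MCT-vehicle 1 or 2 (adjusted p from 0.0505 to 0.0706 over these).

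Of 5 inhibitors of apoptosis, Birc5 alone was called, that is 1 higher and 0 lower, beside 10.3% and 8.28% of all genes tested. The median log2 fold change was -0.032. Birc5, which encodes survivin, a mitotic protein that is also a marker of dividing cells, rose from 2.58 ± 0.494 to 8.88 ± 2.02 CPM (log2 fold change 1.79; edgeR adjusted p = 2.99e-04). The summed level of 8 markers of dividing cells, Birc5 included, was 89.1 to 161 CPM in Control and 248 to 353 CPM in MCT-vehicle, and their part in the rise was not tested. Xiap, the direct caspase inhibitor, stood at 53.8, 57.8, 66.1 and 56.5 CPM in Control and at 39.6, 56.9, 57.0 and 38.4 CPM in MCT-vehicle (log2 fold change -0.29; edgeR adjusted p = 0.140). Birc3 and Birc6 had log2 fold changes of 0.24 and -0.10 and passed no threshold.

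In the death receptor arm, which feeds into BID, 2 of 9 genes rose and 1 fell, with a median of 0.038. Among all genes tested the shares were 10.3% and 8.28%. Tnfsf10, the ligand TRAIL, fell from 193 ± 46.0 to 48.9 ± 14.9 CPM (log2 fold change -1.98 ± 0.31; edgeR adjusted p = 0.00139), the largest decrease among the genes of these pathway lists. The receptor genes Fas and Tnfrsf1a rose by 0.48 and 0.40 (edgeR adjusted p = 0.0168 and 0.0106). The ligand gene Faslg ranged over 1.77 to 3.07 CPM in all 12 libraries (log2 fold change -0.34; edgeR adjusted p = 0.264). Both receptor calls were lost without MCT-vehicle 2 and Control 4 (adjusted p = 0.0794 for Fas and 0.0753 for Tnfrsf1a), and that of Fas also without Control 2 (adjusted p = 0.0546) or Control 4 (adjusted p = 0.0532).

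Of 14 transcriptional regulators of BH3-only genes, 2 rose and 3 fell, beside 10.3% and 8.28% of all genes tested. Their median log2 fold change was -0.020. Mdm2, a ubiquitin ligase gene, rose from 62.7 ± 5.35 to 100.4 ± 14.6 CPM (log2 fold change 0.68; edgeR adjusted p = 8.27e-04). Ppp1r13b, a gene of the ASPP family, fell, with a log2 fold change of -0.66; its edgeR adjusted p was 0.00327. Foxo1, a regulator of Bcl2l11 named after its values were seen, had -0.43 (edgeR adjusted p = 0.0458), a call lost in 12 of 21 alternatives (adjusted p up to 0.136): without Control 1, 2 or 3, MCT-vehicle 1, 3 or 4 or any MCT-Fer-1 library, in a fit of these groups alone and after thinning.

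Of 19 genes for turnover and phosphorylation of BCL2 family proteins, 1 rose and 1 fell, beside 10.3% and 8.28% of all genes tested. Their median log2 fold change was 0.010. Ctsb, a lysosomal protease that can cut BID and is abundant in macrophages, rose by 0.80 ± 0.15 (edgeR adjusted p = 0.00307) while the macrophage markers were called higher in 8 of 9 cases, whose part was not tested. Pim3, a kinase that acts on BAD, had -0.45 ± 0.12 (edgeR adjusted p = 0.0222), a call lost without Control 1 or 3, MCT-vehicle 2 or 3 and without MCT-vehicle 2 and Control 4 together (adjusted p from 0.0507 to 0.0821).

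**Figure D4:**
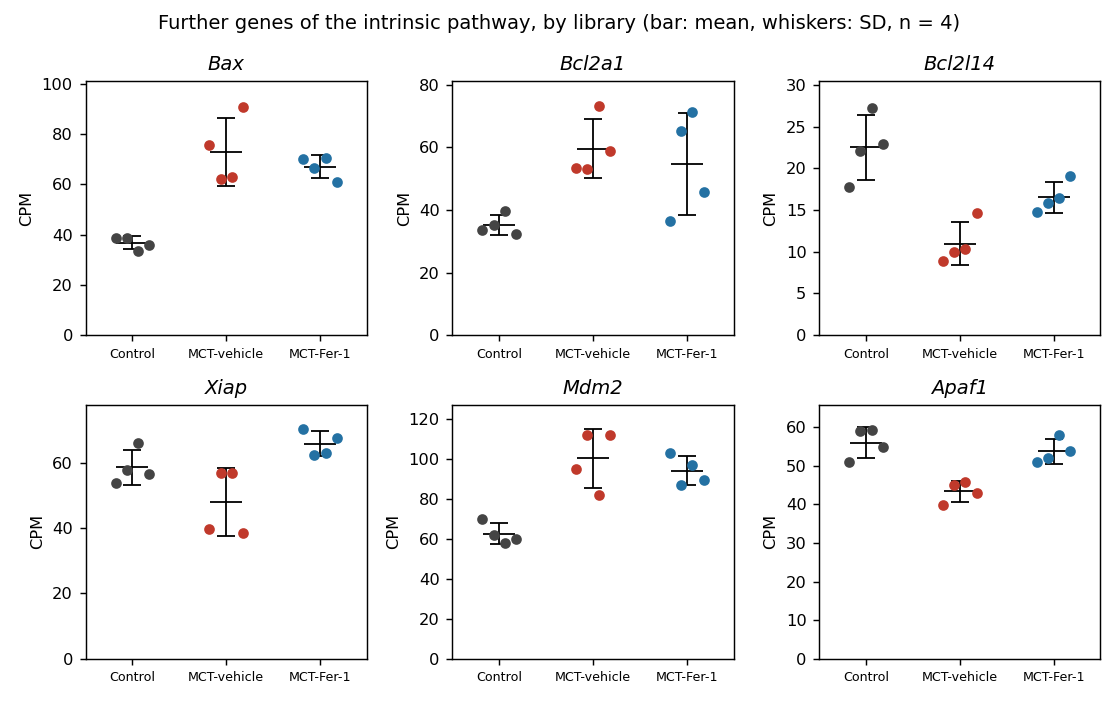
CPM of 6 further genes of the pathway in each library (points), with the group mean (bar) and SD (whiskers, n = 4). Bax and Mdm2 are higher in both monocrotaline groups than in every control, whereas Bcl2l14 and Apaf1 are lower in MCT-vehicle than in every MCT-Fer-1 library.

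Between MCT-Fer-1 and MCT-vehicle edgeR called 0 of the 90 genes tested in the 7 pathway lists, DESeq2 3 and limma voom 0. At an unadjusted p below 0.05 there were 17 of the 90, a larger share than the 12% of all genes tested. The groups did not overlap for 4 of the 90, or 4.44%, beside 6.1% of all genes tested. Apaf1 was among them, at 39.8, 44.95, 45.7 and 43.0 CPM in MCT-vehicle and 51.0, 51.9, 58.1 and 53.9 CPM in MCT-Fer-1 (log2 fold change 0.31 ± 0.07; edgeR adjusted p = 0.174; DESeq2 adjusted p = 0.0157). For Bcl2l14 they were apart by a narrow margin, at 8.84, 10.02, 10.4 and 14.65 CPM in MCT-vehicle and 14.74, 15.8, 16.5 and 19.1 CPM in MCT-Fer-1 (log2 fold change 0.60 ± 0.17; edgeR adjusted p = 0.214; DESeq2 adjusted p = 0.0448). Xiap did not overlap either, at 70.3, 62.3, 63.1 and 67.6 CPM in MCT-Fer-1 (log2 fold change 0.46 ± 0.13; edgeR adjusted p = 0.224). MCT-Fer-1 was higher in Apaf1, Bcl2l14 and Xiap. It was lower in the remaining gene, Bik, a BH3-only gene named to complete the count, at 3.69 ± 0.987 CPM in MCT-vehicle and 2.45 ± 0.310 CPM in MCT-Fer-1 (log2 fold change -0.59 ± 0.22; edgeR adjusted p = 0.320). Tnfrsf1a had a log2 fold change of -0.35 ± 0.09 that did not pass (edgeR adjusted p = 0.210) but did by DESeq2 (0.0483) and with MCT-vehicle 3 left out (0.0458).

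Against Control, MCT-Fer-1 lungs had 2 further family genes higher and 0 lower, 3 and 0 of the apoptosome list, 1 and 0 of the inhibitors, 0 and 1 of the death receptor arm, 1 and 1 of the regulators and 1 and 0 of the turnover list, beside 6.67% and 4.12% of all genes tested. Of the 3 apoptosome genes, Mtch2 (0.19 ± 0.05, edgeR adjusted p = 0.0375) was not called in 11 of 21 alternatives (adjusted p up to 0.106), among them those without any 1 of the Control libraries. Diablo (0.24 ± 0.06, edgeR adjusted p = 0.0224) was not called in 5, namely without Control 2 or 3, without MCT-Fer-1 3 or 4 and without MCT-vehicle 2 and Control 4 together (adjusted p up to 0.0725). Without Control 2 or 3, or MCT-Fer-1 3 or 4, 2 of those 3 calls were thus lost. The turnover call, Ctsb (0.62 ± 0.15, edgeR adjusted p = 0.0198), was lost without Control 1, Control 4 or MCT-Fer-1 3 and without MCT-vehicle 2 and Control 4 together (adjusted p from 0.0563 to 0.0667). Tnfsf10 was lower, with -1.48 ± 0.30 (edgeR adjusted p = 0.00994). Apaf1 had -0.06 ± 0.07 (edgeR adjusted p = 0.677) in this comparison. The Bcl2a1 call (0.64 ± 0.19, edgeR adjusted p = 0.0452) was lost in 13 of 21 alternatives (adjusted p up to 0.135), among them those without any Control library, without MCT-vehicle 1, 2 or 4 and without MCT-Fer-1 2 or 3. Its groups overlapped, with MCT-Fer-1 at 36.5, 65.1, 71.3 and 45.7 CPM.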

How the data were processed

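Per the labels, RNA was harvested from whole lung and libraries were made at a university genomics centre. Per the file headers, the deposited values are raw read counts per gene. The sources used here do not name the aligner, counting tool, strand setting or build. The authors' group means in the same table were not used.

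Genes were kept by edgeR's filterByExpr, leaving 15257 with 99.9% of the counts. Counts were scaled by TMM and fitted over 12 libraries with 1 coefficient per group (robust quasi-likelihood, 9 residual degrees of freedom). The standard error is the log2 fold change divided by the square root of F. Correlations used log2 CPM with a prior count of 2. Libraries hold 11601929 to 70627239 counts, so a floor of 3 counts corresponds to 0.0425 to 0.259 CPM (counting error only). Tools were edgeR 4.0.16, DESeq2 1.42.0 and limma 3.58.1, under R 4.3.3. Counts of libraries of 1 group differed beyond sampling noise in every pair (lowest chi-square of 10.7 per degree of freedom).

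The members and lists were chosen with earlier results of these data known. The 7 pathway lists hold 106 symbols, of which 95 matched and 90 were tested. Named were the listed genes, Bax, up to 4 genes per pathway list with the smallest p in MCT-vehicle against Control, and the 5 genes most like Bcl2l2; some genes that this rule takes, and 1 list, are not reported here. Casp2, Foxo1 and Bik were added after their values were seen. Tested on simulated counts, the MCT-vehicle against Control fit recovered 29.9%, 76.8% and 90.6% of 67, 69 and 64 genes altered 1.5-fold, 2-fold and 4-fold. It made 6 false calls among 15126 genes. The MCT-Fer-1 against MCT-vehicle fit recovered 47.4%, 60.3% and 92.9% of 76, 68 and 56 such genes, with 3 false calls among 15119. Far fewer genes were altered than the 2843 called in MCT-vehicle against Control, so these shares need not hold for that fit of the real counts. Alternatives were upper-quartile and RLE scaling, no filter, DESeq2, limma voom with quality weights, a fit of the compared groups alone, a block for the replicate number, each library left out, MCT-vehicle 2 and Control 4 left out together, and thinning to the smallest total.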

Additional observations from a re-analysis of the deposited data

How the results depend on the processing

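In MCT-vehicle against Control the calls of Bak1, Bid and Bcl2l2 kept direction and side of the threshold in all 21 alternatives. The genes called there numbered 2843 and, without MCT-vehicle 2 and Control 4, 1675, a fit with fewer samples. Between MCT-Fer-1 and MCT-vehicle, where edgeR called 0 genes, DESeq2 called 233, a fit of these groups alone 1, and fits leaving out each library 0 to 41; the most came without MCT-vehicle 3. In MCT-Fer-1 against Control, 1 of the 8 genes was higher and 1 lower. DESeq2, limma voom and thinning each gave 2 higher, leaving out MCT-vehicle 2 and Control 4 gave 0 higher and 0 lower, and leaving out each library gave 0 to 2 higher and 0 to 1 lower. The genes called there numbered 1646, with 978 without MCT-vehicle 2 and Control 4 and 977 to 1714 leaving out each library; they numbered 978 without Control 4, 977 without MCT-Fer-1 2 and 995 without MCT-Fer-1 3. Some estimates of genes that were not called changed sign. Bad in MCT-Fer-1 against MCT-vehicle was -0.033 after thinning and -0.036 to 0.10 leaving out each library. Pmaip1 in the same comparison was -0.22 to 0.011 leaving out each library. Bcl2l1 in MCT-Fer-1 against Control, at 0.20 in the main fit, was -0.031 to 0.41, falling below 0 without MCT-Fer-1 1. Beyond leaving out libraries, the causes were not tested. Deviations of libraries with the same replicate number had r from -0.06 to 0.10, beside -0.17 to 0.15 for libraries with different numbers. No pairing by number was seen, but values this few and this close to 0 cannot exclude one. With the number as a block 2812, 0 and 1676 genes were called in the 3 comparisons and the same counts of the 8 genes. Bcl2, at 50 to 297 counts per library, is the gene most limited by depth.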

Other observations

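Within groups, the named genes whose log2 CPM deviations followed Bcl2l1 most closely over the 12 libraries were Map3k6 (Pearson's r = 0.95), Tmem252 (0.95), Mbd1 (0.94), Batf3 (0.94), Hyal2 (0.94) and Klf15 (0.94). They were chosen after values were seen and as the highest of the tested genes with a name. Genes whose symbol is only a clone, locus or Ensembl identifier were left out of this ranking. Klf15, a glucocorticoid-responsive transcription factor gene, stood at 71.7, 46.3, 35.1 and 34.3 CPM in Control, at 43.4, 41.4, 36.5 and 22.2 CPM in MCT-vehicle and at 51.7, 18.02, 29.7 and 49.0 CPM in MCT-Fer-1. Its highest and lowest library in MCT-Fer-1 were those of Bcl2l1, and in Control and MCT-vehicle likewise. The extremes of Tmem252 were 33.4 CPM (MCT-vehicle 3) and 183 CPM (Control 1). These values describe how libraries of 1 group differ.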
